A study of Drosophila melanogaster with 16 samples.

Results

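The abundant long non-coding RNAs (lncRNAs) of Drosophila P1 neurons were 40 genes, chosen by their counts. Every gene whose FlyBase symbol carries the lncRNA prefix was taken, the dosage-compensation RNAs roX1 and roX2 were left out, and a gene was kept where each of the 8 libraries held 10 or more counts. The 40 were drawn from 1795 measured genes with that prefix, roX1 and roX2 not counted, and from 17559 measured genes in all. P1 neurons are male-specific brain neurons that express the sex-determination gene fruitless and promote courtship. RNA was taken by patch pipette from the P1 cluster of living males and amplified. There were 4 libraries from mated males and 4 from naive males. Males of both groups were UAS>stop>GFP/+; fruFLP/NP2631-Gal4, in which GFP marks cells that share fruitless recombinase and NP2631 driver activity, and were 3 to 6 days old. All males were isolated for 4 to 6 days, after which those of the mated group were put with a female and those of the naive group stayed virgin. The series text speaks of 4 paired sets of naive and mated animals, but no label says which libraries form a pair, so every test here is unpaired. How many animals gave a library is not said either, and p-values measure only the spread between these libraries.

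lncRNAs are transcribed and spliced like messenger RNAs but encode no known protein. Some act as scaffolds that gather RNA-binding proteins into nuclear bodies or cytoplasmic granules, some are precursors of microRNAs, and for most fly lncRNAs no function is known. Hsromega, the heat-inducible RNA of the 93D puff, nucleates the nuclear omega speckles that hold hnRNP proteins. mimi is a neuronal RNA that scaffolds granules holding ELAV-like proteins and Staufen, and cherub is an RNA of neural stem cells that binds Staufen and is known from brain tumours.

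Library totals were 7440583 to 13651313 counts in mated males and 6897560 to 9162763 in naive males. fruitless and doublesex, the sex-determination genes behind the labelled cell type, had counts in every library. fruitless averaged 286.1 ± 206.8 CPM in mated and 775.9 ± 338.4 CPM in naive males (SD, n = 4 each). doublesex averaged 79.2 ± 32.4 CPM in mated and 99.9 ± 56.6 CPM in naive males (SD, n = 4 each). The groups overlapped for both genes. CPM are counts scaled to a common library total, with a correction for composition by TMM, the trimmed mean of M-values. Markers of neurons and of other cells differed between the groups. The summed level of 4 neuronal markers was 3461.9 to 5725.0 CPM in mated and 5850.0 to 8519.0 CPM in naive males, with 4 of 4 at lower fitted values in mated males. The summed level of 6 fat body markers was 1231.0 to 2953.7 CPM in mated and 242.8 to 606.8 CPM in naive males. The 5 glial markers summed to 224.5 to 726.3 CPM in mated and 66.9 to 290.9 CPM in naive males. nrv2 and Gs2 made up most of that glial sum. The glial marker repo averaged 4.92 ± 4.04 CPM in mated and 4.13 ± 4.74 CPM in naive males (SD, n = 4 each). alrm and moody were too low to be tested. The summed level of photoreceptor markers was 96.0 to 559.0 CPM in mated and 15.0 to 94.8 CPM in naive males. Of 5 photoreceptor markers tested, 4 were at higher fitted values in mated males and 1, trpl, at a lower value. Muscle and hemocyte markers summed to under 100 CPM in every library. No marker in these lists was at 0 in all libraries. In material of this kind fewer cells of a type and less RNA per cell cannot be told apart, and the part of these markers in the lncRNA results below was not tested.

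Few lncRNA genes reached the threshold. Of the 1795, 970 had no count in any library, 394 had 10 or more counts in at least 1 library and 40 had them in all 8, a share of 2.23%, against 29.9% of 13685 protein-coding genes. The lowest count of a member was 10, in CR9284, followed by CR42549 at 18, CR45417 and CR45706 at 19 each and CR45919 at 20. Just outside were CR45054, with a lowest count of 9, CR45625 at 8, and CR45223, CR45418 and CR45473 at 7 each. CR45054 reached 650 counts in naive library 1 and was left out by 9 counts in mated library 2, so the rule selects for steady detection as well as for level.

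The members spanned levels from a few CPM to several percent of all counts. 4 members had a mean of 1000 CPM or more, 4 lay between 100 and 1000, 28 between 10 and 100, and 4 under 10. Together the members took 6.82 ± 1.21% of all counts in mated males and 8.16 ± 0.668% in naive males (SD, n = 4 each), with ranges of 5.21 to 8.08% in mated and 7.19 to 8.71% in naive that overlapped. noe, Hsromega and mimi held 93.7 to 95.8% of the members' counts in mated and 94.1 to 95.6% in naive libraries. The other 37 members held 0.312 to 0.347% of all counts in mated and 0.384 to 0.425% in naive libraries, and these ranges did not overlap. Their summed level after scaling was 2864.9 to 3445.8 CPM in mated and 3836.6 to 4727.1 CPM in naive libraries. All other lncRNA genes, roX1 and roX2 not counted, held 0.0663 to 0.112% in mated and 0.0863 to 0.123% in naive libraries. roX1 and roX2 together held 0.2459 to 0.5065% in mated and 0.4494 to 0.5813% in naive libraries.

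**Figure D1:**
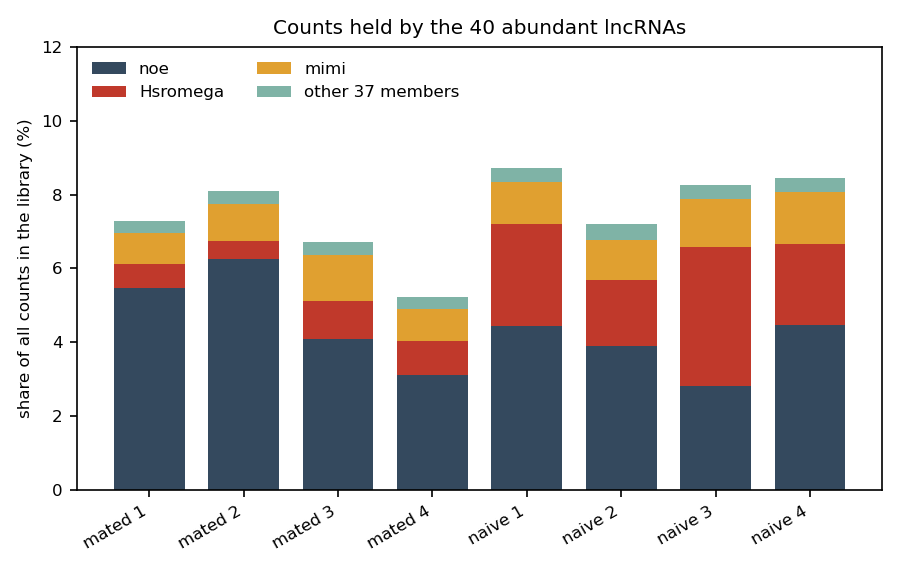
Share of all counts (%, vertical axis) held by noe, Hsromega, mimi and the other 37 members, stacked, in the 4 mated and 4 naive libraries. The Hsromega segment is 0.497 to 1.03% in mated and 1.80 to 3.76% in naive libraries, while the noe segment is the tallest in 7 of 8 libraries.

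noe was the most abundant gene of the whole data set. It lies at 3L:17400272-17401348 on the minus strand of dm6, a single exon of 1077 bp inside an intron of blot on the same strand. Its level was 50307, 55734.6, 40642.5 and 30589.5 CPM in mated libraries 1 to 4, against 44298.6, 43199.5, 32302.1 and 45581.2 CPM in naive libraries 1 to 4. The groups overlapped widely, and noe varied least of the 40 members, with an SD of 0.30 for log2 CPM over the 8 libraries. It ranked first of all genes in every library but naive 3, where it ranked second. The counts did not extend to the exons of its host: blot averaged 2.57 ± 4.01 CPM in mated and 1.16 ± 2.24 CPM in naive males and had no count in 3 libraries. Between the groups the log2 fold change was 0.10 ± 0.22 for noe (SE), with an adjusted p of 0.976 in the edgeR quasi-likelihood test. The sign of so small a value turned when mated library 2 or naive library 3 was left out.

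Hsromega fell in mated males and was the one member that edgeR called. The gene lies at 3R:21296127-21317836 on the plus strand, with 7 annotated transcripts of up to 2 exons and 21710 bp of exon sequence, and it contains the microRNA gene mir-4951. Its level was 5840.5, 4436.7, 10276.2 and 8953.9 CPM in mated libraries 1 to 4, against 27729.1, 20040.5, 43089.3 and 22563 CPM in naive libraries 1 to 4. Every mated library lay below every naive library, and the closest pair was mated 3 and naive 2. The level was 3.84-fold lower in mated males (edgeR quasi-likelihood test, log2 fold change -1.94 ± 0.30, SE, adjusted p = 0.0114 over 7090 genes). Hsromega ranked 8, 11, 5 and 4 among all genes in mated libraries 1 to 4, against 2, 4, 1 and 3 in naive libraries 1 to 4. noe had 3.42 to 12.6 times the counts of Hsromega in mated libraries and 0.750 to 2.16 times in naive libraries.

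A number stands in each sample title without an explanation, and it is partly tied to the groups: numbers 1105, 1113 and 1125 hold 1 naive library each, 1120 holds 2 mated libraries, and 1119 holds mated 1, mated 3 and naive 3. Within number 1119, the one number with both groups, the log2 fold change of Hsromega was -2.42 ± 0.81 (SE), with an adjusted p of 0.315 from edgeR. That contrast rests on a single naive library, naive 3, which is the highest of all for Hsromega and is assumed to vary like the mated pair, so the title number and the group cannot be told apart. Without mated library 1 it was -1.84 (edgeR, adjusted p = 0.0710), and limma-voom gave -1.95 (adjusted p = 0.0590).

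The other genes of the omega speckle list gave no call. The list holds hnRNP and partner proteins of Hsromega, of which 11 of 13 could be matched. Of the 11, 10 had values below 0 in mated males, with a median log2 fold change of -0.50. Over all genes tested 50.5% were below 0 and the median was -0.01. Over the 4276 genes with 10 or more counts in every library, 55.8% were below 0 and the median was -0.09. Of the 11, the number below 0 was 9 with upper-quartile scaling and 8 with library size alone. None passed the adjusted threshold with edgeR, DESeq2 or limma-voom, and 2 had an unadjusted p under 0.05 with each tool, where 5.02% of all genes were lower at that level in edgeR. These were sqd, an hnRNP that takes part in splicing and localising messenger RNAs, at -0.76 ± 0.23 (SE), and nej, the CBP histone acetyltransferase, at -0.93 ± 0.35 (SE). Their adjusted p-values in edgeR were 0.201 and 0.331. Hsf, the heat shock factor, averaged 67.2 ± 28.4 CPM in mated and 104.5 ± 56.2 CPM in naive males (SD, n = 4 each).

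mimi, the third of the very abundant members, lies at 3R:23983503-23985065 on the plus strand, a single exon of 1563 bp that contains mir-9381. Its level was 7853.7, 8962.2, 12281.8 and 8370.9 CPM in mated libraries 1 to 4, against 11209.7, 11980.6, 14875.1 and 14427.1 CPM in naive libraries 1 to 4. Mated libraries 1, 2 and 4 were below all naive libraries, and mated library 3 lay within the naive range. The log2 fold change was -0.49 ± 0.21 (SE; edgeR, adjusted p = 0.409), which did not pass the threshold. mimi stood above Hsromega in mated libraries 1, 2 and 3 and below it in mated 4 and in all naive libraries.

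Genes of the proteins that mimi is known to gather gave no call. elav and Rbp9, neuronal RNA-binding proteins of the ELAV family, had log2 fold changes of -0.70 ± 0.25 and -0.70 ± 0.30 (SE), and their relative fne had -0.31 ± 0.22 (SE). stau, which encodes Staufen, had -0.05 ± 0.27 (SE), a sign that turned with library-size scaling. None of the 4 passed the adjusted threshold with edgeR, DESeq2 or limma-voom, and elav and Rbp9 had an unadjusted p under 0.05 in edgeR, where 5.02% of all genes were lower at that level. elav is also one of the neuronal markers with lower values in mated males, as are nSyb and Syt1, synaptic vesicle proteins whose log2 fold changes were -0.50 ± 0.21 and -0.70 ± 0.27 (SE). The fold change of mimi lay between those of fne and nSyb. Its neighbours on the chromosome are CG31140 at 271 bp on one side and CG13603 at 148 bp on the other, with log2 fold changes of -0.65 for CG31140 and no called change for either.

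**Figure D2:**
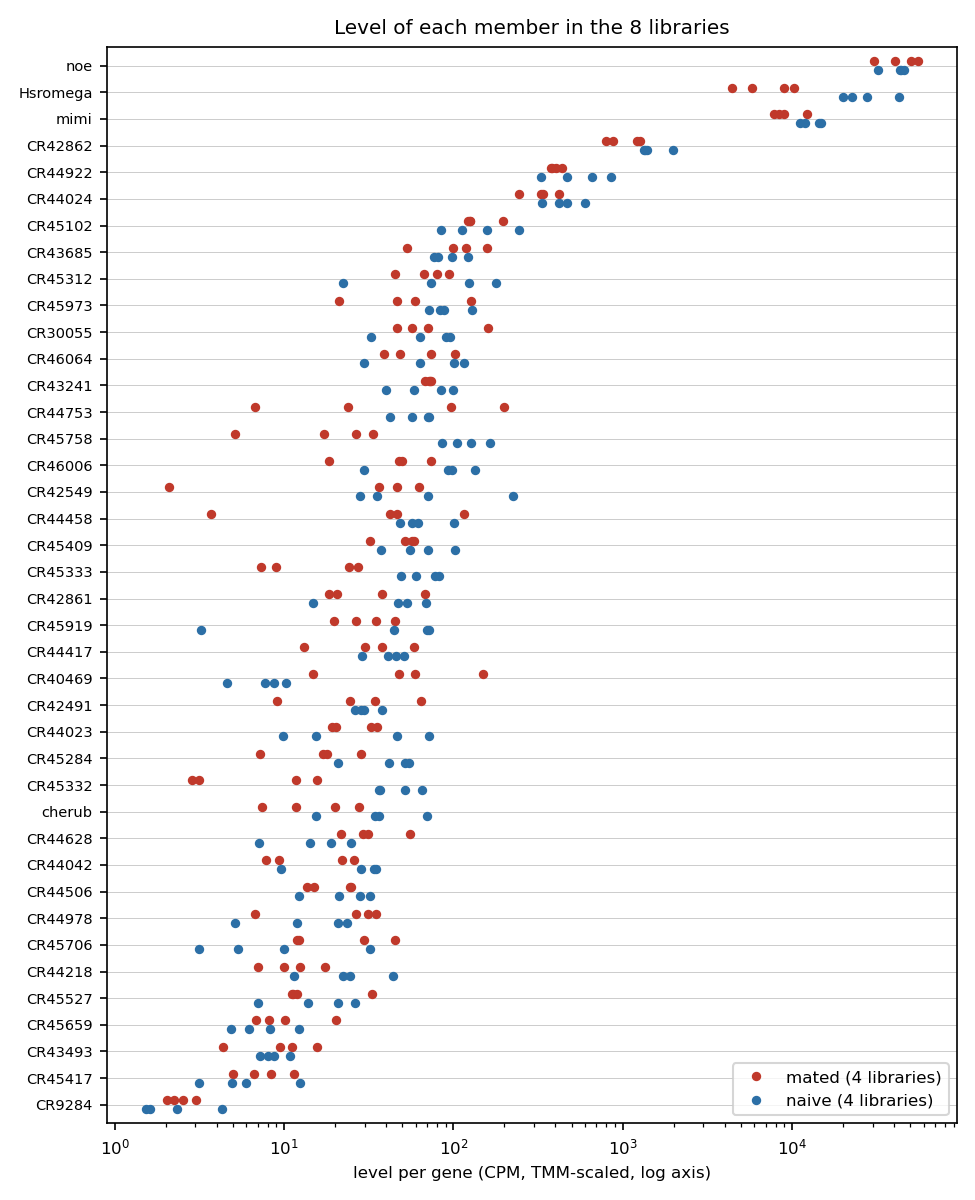
Level of each of the 40 members (CPM, log axis) in the 4 mated (red, upper of each pair) and 4 naive (blue) libraries, ordered by mean level. The groups are apart for Hsromega, CR42862, CR45758, CR45332 and CR45333, which are lower in mated males, and for CR40469, which is higher.

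Per length the order of the members changed. CPM per kilobase of exon set noe at 39769.6 and mimi at 7194.6, first and second of the 4276 genes with 10 or more counts in all 8 libraries. Hsromega stood at 822.9, rank 49. Its length here is the exon union of 7 annotated transcripts, 21710 bp that cover the whole gene. The value per kilobase depends on which of these were expressed, and gene counts cannot tell that. CR42862 followed with 232.7 per kilobase and CR44922 with 194.1. CR40469 and CR45333, the shortest members at 214 and 296 bp, came sixth with 176.4 and eighth with 142.2 per kilobase although their levels per gene were 37.8 and 42.1 CPM. These means pool groups that differ: Hsromega had 339.8 per kilobase in mated and 1306 in naive males, rank 3 of the members in both. CR40469 had 316.2 per kilobase in mated and 36.7 in naive males, rank 4 and 22 of the members. CR45333 had 57.2 per kilobase in mated and 227.2 in naive males, rank 16 and 6. CR44024, seventh with 148.6, CR45102, ninth with 102.3, and CR45758 with 95.7 per kilobase completed the highest 10. CR45758 likewise had 28.0 per kilobase in mated and 163.5 in naive males. At the other end stood CR9284 with 2.75 and cherub with 3.32 CPM per kilobase. As the threshold is on counts, a short gene needs a higher level per kilobase than a long one to reach it.

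**Figure D3:**
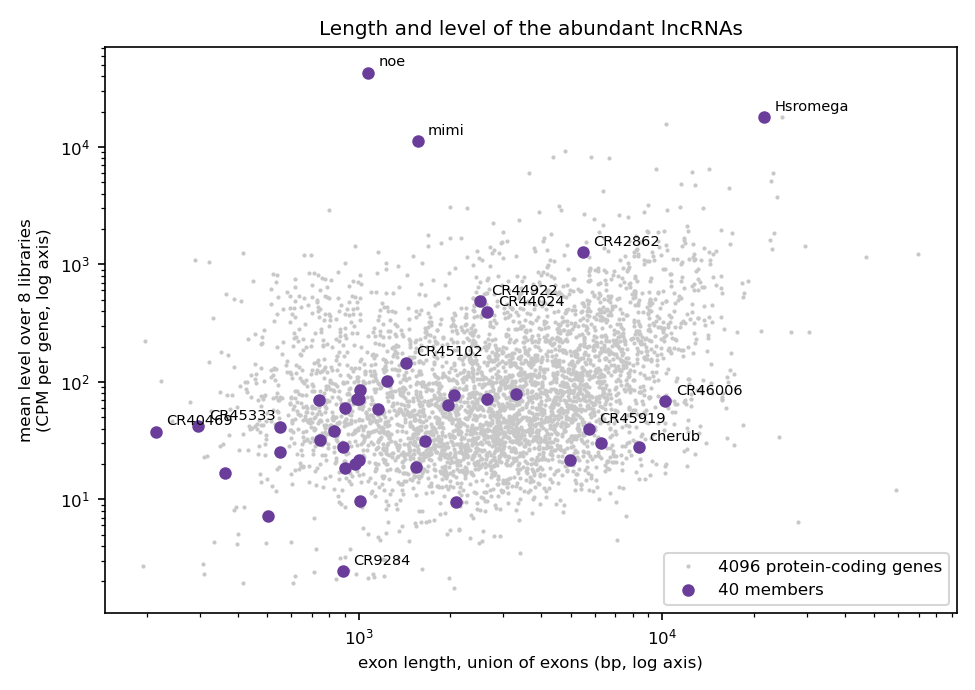
Mean level over 8 libraries (CPM per gene, log axis) against exon length (bp, log axis) for the 40 members (purple) and for 4096 protein-coding genes with 10 or more counts in every library (grey). noe and mimi lie far above coding genes of their length, and Hsromega has the longest union of exons of the members at 21710 bp.

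The members resembled other lncRNA genes in how often they have a single exon. Their median exon length was 1119.5 bp, from 214 to 21710 bp, against 605 bp in the other 1755 lncRNA genes and 2887.5 bp in the 4096 coding genes of the same count threshold. 24 of the 40 (60.0%) have a single exon, against 66.4% of other lncRNA genes and 4.49% of those coding genes. They lie on all major chromosomes, with 7 on X (17.5%, against 12.1% of other lncRNA genes and 18.0% of those coding genes), 8 on 2L, 9 on 2R, 8 on 3L, 6 on 3R and 2, CR44024 and CR44023, on the small chromosome 4. 12 of 40 (30%) share exon sequence with another gene, against 14.4% of other lncRNA genes and 33.2% of those coding genes, and 7 lie in an intron of a coding gene. Among the 12 are Hsromega, mimi, CR46006 and CR45919, for which the other gene is only a microRNA hairpin inside the member. Whether the counting used strand is not given in the sources used here, so the counts of overlapping members and of their partners are uncertain. The overlap was 50.5% of the exon length for CR42491, which shares it with the ribosomal protein gene RpL22, and 42.4% for CR43241, which shares it with CG42748. It was 4.93% for CR42549 with mura, 4.48% for CR42862 with CG33229 and 1.72% for CR45409 with the cleavage factor gene Cpsf6. All these partners lie on the same strand as the member. With partners on the other strand, the overlap was 27.7% for CR46064 with CR43281, 27.3% for CR44458 with the lncRNA gene CR44459 and 13.9% for CR45973 with CG13248.

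4 members contain a microRNA hairpin. Beside Hsromega and mimi these are CR46006, which contains mir-276a, a microRNA with a role in fly memory, and CR45919, which contains mir-124, the conserved neuronal microRNA. The hairpin genes mir-4951, mir-276a and mir-124 are listed at 0 in all 8 libraries, and polyA RNA counted per gene does not measure mature microRNAs. CR46006 lies at 3L:10323501-10367450 and stood at 18.5, 48.0, 49.9 and 73.6 CPM in mated libraries 1 to 4, against 98.3, 93.1, 29.5 and 134.6 CPM in naive libraries 1 to 4. Naive library 3 fell among the mated values, and the difference of -0.90 ± 0.53 on the log2 scale (SE; edgeR, adjusted p = 0.613) did not pass the threshold. Within title number 1119, where naive 3, the lowest naive library for this gene, is the one naive library, it was 0.22. CR45919 lies at 2L:17560813-17566551 and stood at 19.7, 34.9, 26.8 and 45.4 CPM in mated libraries 1 to 4, against 70.2, 3.22, 44.3 and 71.5 CPM in naive libraries 1 to 4. Naive library 2 was the lowest of all and the other naive libraries were near or above the highest mated one, and edgeR gave -0.58 ± 0.75 on the log2 scale (SE, adjusted p = 0.907).

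cherub lies at 3R:11247631-11256123 on the minus strand, 72357 bp from the neural fate gene pros. It stood at 11.7, 7.39, 19.9 and 27.8 CPM in mated libraries 1 to 4, against 15.5, 69.9, 34.4 and 36.5 CPM in naive libraries 1 to 4. Naive library 1 lay within the mated range, and the log2 fold change was -1.23 ± 0.76 (SE; edgeR, adjusted p = 0.639). pros itself had no called change.

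After these, CR42862 was the most abundant member. It lies at 3L:224106-230964 on the plus strand with up to 4 exons. It stood at 800.2, 872.7, 1211 and 1272.7 CPM in mated libraries 1 to 4, against 1397.5, 1337, 1973.9 and 1348 CPM in naive libraries 1 to 4. The groups did not overlap, but mated library 4 and naive library 2 were close. At -0.54 ± 0.23 on the log2 scale (SE; edgeR, adjusted p = 0.423) the difference did not pass the threshold. CR44922 averaged 401.0 ± 28.0 CPM in mated and 576.0 ± 226.8 CPM in naive males, and CR44024 averaged 333.2 ± 72.3 CPM in mated and 455.4 ± 111.6 CPM in naive males (SD, n = 4 each), both with overlapping groups. CR45102, CR43685, CR45312, CR45973, CR30055 and CR46064, the remaining members of the 12 most abundant, averaged 63.3 to 142.2 CPM in mated and 70.6 to 150.2 CPM in naive males, again with overlap.

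The largest differences were in members of lower level. CR45758, a single exon of 739 bp at 3L:22960930-22961668 on the plus strand, stood at 17.2, 5.13, 33.7 and 26.8 CPM in mated libraries 1 to 4, against 164.0, 105.5, 127.5 and 86.1 CPM in naive libraries 1 to 4. All mated libraries lay far below all naive ones. Its log2 fold change of -2.54 ± 0.55 (SE) was the lowest of the 4276 genes with 10 or more counts in every library. That count threshold leaves out genes that fall near 0 in a library, and among all 7090 genes tested CR45758 ranked 127 from the lowest. Its adjusted p of 0.0598 in edgeR just missed the threshold. Under 5 of 21 alternative settings it passed, DESeq2 and leaving out mated library 3 among them. The coding genes on either side, CG32461 and CG32457, were too low to be tested.

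CR45332 and CR45333 lie 86 bp apart on the minus strand, at 2L:17901807-17902691 and 2L:17902778-17903073. CR45332 stood at 11.8, 2.87, 3.13 and 15.6 CPM in mated libraries 1 to 4, against 65.1, 36.6, 36.9 and 51.7 CPM in naive libraries 1 to 4. CR45333 stood at 24.3, 7.30, 8.95 and 27.2 CPM in mated libraries 1 to 4, against 81.7, 77.7, 49.1 and 60.5 CPM in naive libraries 1 to 4. For both, mated libraries 2 and 3 were the lowest and no mated library reached a naive one. Their log2 fold changes were -2.51 ± 0.80 and -1.99 ± 0.60 (SE), with adjusted p-values of 0.229 and 0.204 in edgeR, and both passed with DESeq2. The value of CR45332 was the second lowest of the 4276 genes and ranked 131 from the lowest among the 7090 genes tested. Gene counts cannot tell whether so close a pair on one strand is a single transcript. On one side the nearest coding gene is CG43271, 11292 bp from CR45333, which had no count in any library, and on the other it is CadN2, a neural cadherin 26560 bp from CR45332. CadN2 averaged 63.3 ± 20.4 CPM in mated and 143.9 ± 50.6 CPM in naive males (SD, n = 4 each), a log2 fold change of -1.18 (edgeR, adjusted p = 0.239).

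CR40469 had the opposite sign. This 214 bp single exon lies at X:122493-122706 on the plus strand, near the X chromosome's end, with CG17636 as its nearest coding gene at 1664 bp. It stood at 148.7, 59.6, 47.5 and 14.9 CPM in mated libraries 1 to 4, against 8.73, 10.3, 4.61 and 7.76 CPM in naive libraries 1 to 4. The groups did not overlap, but the mated libraries were spread widely while the naive ones lay close together. The log2 fold change was 3.10 ± 0.74 (SE; edgeR, adjusted p = 0.0901), and it passed under 3 of 21 alternative settings, leaving out mated library 4 among them. Without mated library 1, the highest, it was 2.37. Within title number 1119 it was 4.39, against naive 3 alone, which is the lowest library for this gene. Fat body, photoreceptor and glial markers also had higher summed levels in mated males, as given above, with overlapping groups for the glial sum. Any link of these markers to CR40469 was not tested. The next highest fold changes were 1.08 ± 0.75 for CR44628, 0.97 ± 1.0 for CR45706, 0.70 ± 0.90 for CR44978 and 0.52 ± 1.16 for CR45659 (log2, SE), all with overlapping groups and an adjusted p of 0.696 or more in edgeR. Their levels ranged from 6.73 to 55.8 CPM in mated and 3.13 to 32.1 CPM in naive libraries.

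**Figure D4:**
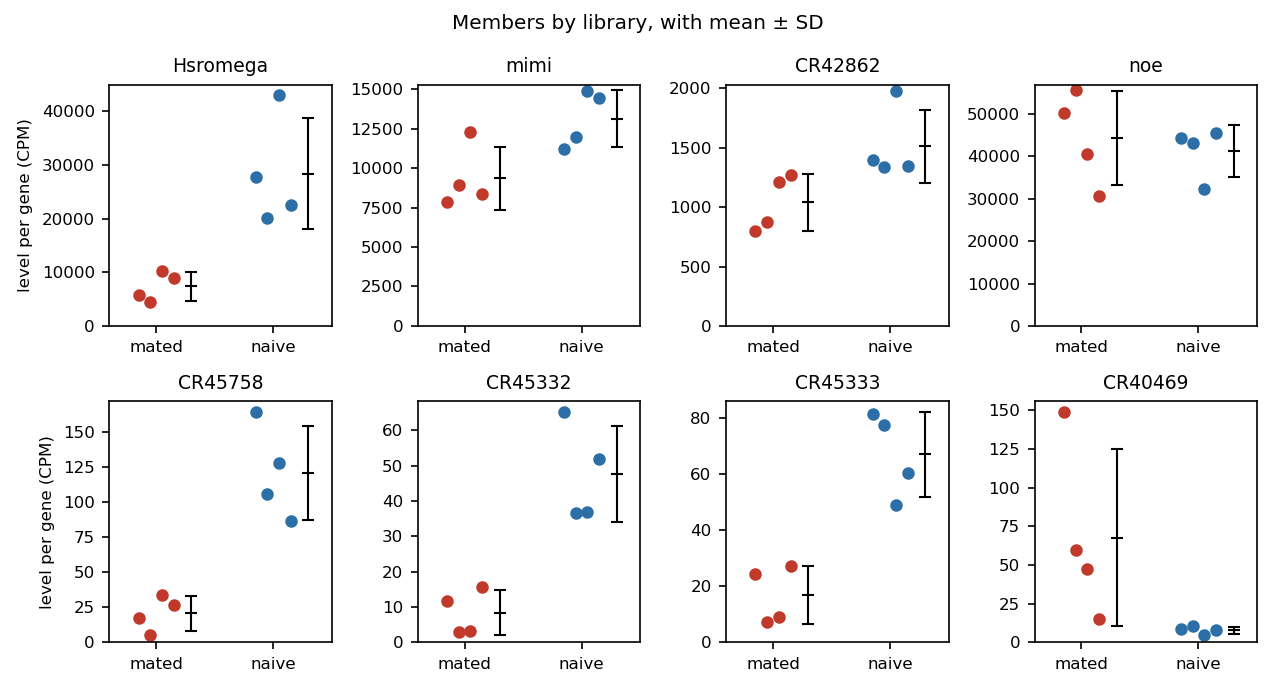
Level per gene (CPM, linear axes from 0) of 8 members in the 4 mated (left, red) and 4 naive (right, blue) libraries, with mean and SD in black. Hsromega, CR42862, CR45758, CR45332 and CR45333 show no mated library inside the naive range, mimi and noe overlap, and CR40469 is high in mated males with a spread from 14.9 to 148.7 CPM.

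Over all 40 members, all of which passed the filter on low counts, 1 was lower in mated males at an adjusted p under 0.05 and none was higher, with a background of 0.0423% of 7090 genes called lower and 0.339% called higher by edgeR. By DESeq2 4 were called lower and 1 higher, against 0.742% of 7004 genes lower and 2.58% higher. By limma-voom none was called in either direction, against 0% of all genes lower and 0.0423% higher. At an unadjusted p under 0.05 in edgeR, 6 members were lower and 1 was higher, against 5.02% of all genes lower and 5.54% higher. Among the 4276 genes with 10 or more counts in every library, 557 reached that level in either direction, beside 7 of the 40 members. Of those 4276 genes, 25 had an adjusted p under 0.05 in edgeR. 5 members were lower and 1 was higher with no overlap between the groups, against 3.40% of all genes lower and 4.26% higher. With the close pair CR45332 and CR45333 taken as 1, the lower counts are 3 by DESeq2, 5 at an unadjusted p under 0.05 and 4 with no overlap. 26 members had values below 0 and 14 above, a share of 65.0% below, and their median log2 fold change was -0.36. Among the 4276 genes of the same count threshold 55.8% were below 0 and the median was -0.09. With library size alone as the scaling, the median of all genes moved to 0.17 and that of the members to -0.16. The 79 lncRNA genes, roX1 and roX2 not counted, that were tested without meeting the rule gave no call with edgeR or limma-voom and 4 with DESeq2. At an unadjusted p under 0.05, 3 were higher and 3 lower in edgeR. In limma-voom 1 was higher and 13 were lower, where 898 of all 7090 genes reached that level with this tool in either direction.

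**Figure D5:**
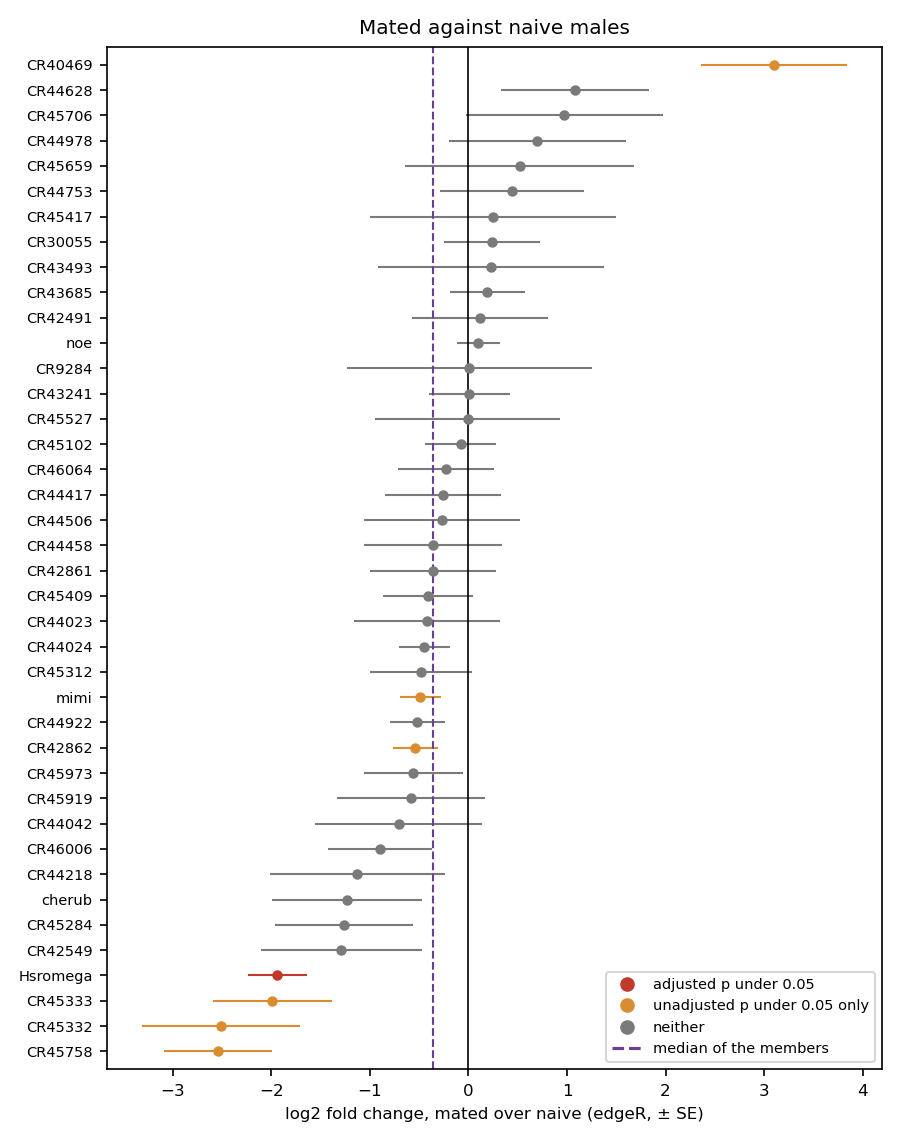
Log2 fold change of each member, mated over naive (edgeR, point ± SE), ordered by value. Hsromega (red) alone has an adjusted p under 0.05, 6 further members (orange) have only an unadjusted p under 0.05, and the dashed line marks the members' median of -0.36.

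The members also differed in how much they varied among libraries. The SD of log2 CPM over the 8 libraries was taken with 0.5 CPM added to each value. It was smallest for noe at 0.30, mimi at 0.35, CR44024 and CR43241 at 0.39 each and CR9284 at 0.40. The added 0.5 CPM narrows the spread of CR9284, which stood at only 1.527 to 4.285 CPM, so its place here depends on that setting. The SD was largest for CR42549 at 1.82, CR40469 at 1.70, CR45758 at 1.68, CR45332 at 1.67 and CR44458 at 1.48. The median over the members was 0.83, against 0.69 for the coding genes of the same count threshold. This SD pools both groups, so a difference between them adds to it. Within mated and within naive libraries it was 1.16 and 0.39 for CR45758, 1.17 and 0.40 for CR45332, and 1.35 and 0.47 for CR40469. It was 2.13 and 1.34 for CR42549 and 2.05 and 0.45 for CR44458, where the members' medians were 0.70 and 0.60. CR42549 stood at 2.08, 46.2, 63.0 and 36.4 CPM in mated libraries 1 to 4, against 35.6, 28.0, 226.1 and 70.6 CPM in naive libraries 1 to 4. Mated library 1 was far below and naive library 3 far above the rest, and the other libraries of both groups lay together. CR44458 was likewise set apart by mated library 4, at 3.69 CPM against 42.5 to 116.1 CPM in the other mated and 48.6 to 100.4 CPM in the naive libraries.

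Neighbouring coding genes gave no call with edgeR. For 31 members at least 1 nearest coding gene was tested, 45 pairs in all, of which 28 had a neighbour with a value below 0 in mated males and 17 above, with a median of -0.31, where 50.5% of all tested genes were below 0. edgeR and limma-voom called none of the 44 neighbours. At an unadjusted p under 0.05 edgeR gave 5 lower and 3 higher, against 5.02% of all genes lower and 5.54% higher. DESeq2 called 1, lgs, a Wnt pathway cofactor 5188 bp from CR44024 on chromosome 4. lgs stood at 209.9, 185.7, 215.6 and 250.7 CPM in mated libraries 1 to 4, against 344.7, 505.6, 496.5 and 471.8 CPM in naive libraries 1 to 4, with no overlap (edgeR, log2 fold change -1.08 ± 0.24, SE, adjusted p = 0.0681). CR44024 beside it had -0.45 ± 0.26 (SE) with overlapping groups. CR45284, which stood at 17.6 ± 8.65 CPM in mated and 42.3 ± 15.4 CPM in naive males (SD, n = 4 each), lies 1864 bp from the acetylcholine receptor gene nAChRalpha5. The log2 fold changes were -1.26 ± 0.70 for CR45284 and -0.66 for nAChRalpha5, with no call for either. Hsromega lies 2129 bp from the neuropeptide receptor gene SIFaR and 464 bp from aus, with no call for either neighbour.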

How the data were processed

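Raw counts per gene were deposited by the authors, with 2 sequencing runs of each library and their sum in 1 table per library. Per the submitters' processing notes the tools were cutadapt, HISAT2 2.2.1 and featureCounts 1.6.2 on dm6 (BDGP6), with edgeR, limma and DESeq2 2.11 also named. The strand setting and the annotation release are not given in the sources used here. The summed counts of 8 libraries were tested with edgeR 4.0.16 (TMM scaling, low-count filter by group, robust quasi-likelihood test, Benjamini-Hochberg adjustment over 7090 genes, threshold 0.05). The fit was checked on simulated data. CPM were TMM-scaled, and levels per kilobase used the union of exons. DESeq2 1.42.0, limma 3.58.1, other scalings and filters, each run alone, the title number and leaving out each library were the alternatives. Symbols, positions and exon lengths came from Ensembl release 115 (BDGP6) and matched 17253 of 17559 identifiers. Genes without a symbol held 3.13 to 4.59% of counts and stayed in the fit. Named genes were members past the threshold, the 12 most abundant, the 10 highest per kilobase, the 5 highest and 5 lowest fold changes, the 5 most and 5 least variable, those nearest the count threshold and those of the lists. Any other gene was chosen with its values in view. The members and lists were chosen with earlier results of these data known.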

Additional observations from a re-analysis of the deposited data

Results flagged for a closer look

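Each member's 4 mated and 4 naive libraries were examined for 1 library far from the other 3, and 3 of 80 groups met the limit, where chance gives about 1 in 20 groups. CR45102 stood at 195.4 CPM in mated library 3, and the next mated library was at 126.0 CPM. CR45527 stood at 33.2 CPM in mated library 1, and the next mated library was at 11.9 CPM. CR42862 stood at 1973.9 CPM in naive library 3, and the next naive library was at 1397.5 CPM.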

How the results depend on the processing

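The fall of Hsromega was called under 17 of 21 alternatives, and its log2 fold change was below 0 in all 21. It was -2.42 with the title number as a factor and -2.42 within number 1119 (edgeR, adjusted p = 0.702 and 0.315), which are the same contrast with 1 naive library, and -1.95 with limma-voom. Leaving out 1 library at a time gave -2.13 to -1.67, with the call lost without mated library 1. The number of members called was 2 with no filter and with run B alone, 3 among genes with 10 counts in all libraries, 5 with DESeq2, and 0 with limma-voom, with the title number as a factor, within number 1119 and among the 28 members that share no exon sequence, which leave Hsromega out for its hairpin. Leaving out 1 library gave 0 to 2: 0 without mated library 1, and 2 without mated library 3 or mated library 4. noe ranged from -0.03 to 0.23 when 1 library was left out, CR46006 was 0.22 with the title number as a factor and within number 1119, and stau was 0.12 with library size alone, 0.05 among genes with 10 counts in all libraries, 0.10 with the title number in both ways, and -0.16 to 0.08 with 1 library left out. A threshold of 100 counts left 15 members. The share of all counts over 8 libraries, 7.49%, was 4.50% without overlapping members and 0.365% without noe, Hsromega and mimi. Most of the drop to 4.50% was Hsromega and mimi, at 1.70% and 1.11%, which overlap only a microRNA hairpin. Members near 10 counts are limited by depth, with SEs of up to 1.25. No paired analysis was possible because the labels do not say which mated and naive libraries form a pair.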

Other observations

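CR44832, an lncRNA gene on X that failed the rule, had 1586, 665, 1331 and 6 counts in mated libraries 1 to 4, against 15, 0, 1 and 25 counts in naive libraries 1 to 4. It was high in 3 of 4 mated libraries, and mated library 4 lay among the naive ones. The log2 fold change was 6.03 ± 1.40 (SE; edgeR, adjusted p = 0.0788), from 5.33 to 7.0 when 1 library was left out. CR44832 was singled out after its values were seen, as the most abundant gene with the lncRNA prefix outside the rule, roX1 and roX2 not counted. marge, another of these, had 1, 181, 0 and 2 counts in mated libraries 1 to 4, against 189, 54, 385 and 177 counts in naive libraries 1 to 4, and 1 mated library lay within the naive range (edgeR, adjusted p = 0.606).

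Hosts of small nucleolar RNAs and microRNAs outside the members gave no call. Of 11 listed, 10 were matched and 7 tested, 5 with values above 0 and 2 below, and none passed with edgeR, DESeq2 or limma-voom (none with edgeR and 1 with limma-voom at an unadjusted p under 0.05). Uhg4, a snoRNA host, averaged 212.3 ± 63.2 CPM in mated and 149.5 ± 46.4 CPM in naive males (SD, n = 4 each). Of 7 well-characterised lncRNAs listed, cherub alone was tested, and CRG had no count in any library.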
